A study of Mus musculus with 18 samples.

Results

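The primary cilium and polycystic kidney genes examined here were 34 genes grouped by known function and chosen with earlier results of these arrays known: transcription factors of ciliogenesis, an axonemal doublecortin protein, the polycystins and fibrocystin, subunits of the intraflagellar transport (IFT) and BBSome complexes, kinesin-2 motors, and proteins of the transition zone. Of these, 32 had 1 transcript cluster each (a set of probes read as 1 value) on the array, out of 23410 clusters with a gene symbol. Pkd2 and Arl13b were not analysed here, because no cluster carried their symbol. The levels came from mIMCD-3 cells, a mouse line of the inner medullary collecting duct, on 18 arrays in 2 experiments of 9. In the first, cells received the solvents alone as vehicle (ethanol and DMSO, each at 0.1%), 1 µM AGN193109 (an antagonist of all retinoic acid receptors), or 1 µM AGN193109 with 0.2 µM all-trans retinoic acid (tRA). In the second they received vehicle, 25 µM DEAB (an inhibitor of the retinaldehyde dehydrogenases that make tRA), or 25 µM DEAB with 0.01 µM tRA. Treatment lasted 24 h in every group, and each group had 3 biological replicates. All groups were cultures of 1 cell line in dishes, and cilia themselves were not measured in these data. The question was whether the antagonist or the synthesis inhibitor changed cilium genes as a group, and whether Foxj1 and Dcdc2a moved alone.

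The primary cilium is a single, non-motile projection of the cell surface built on a microtubule axoneme. Kinesin-2 carries IFT-B trains to its tip, IFT-A returns them with dynein, the BBSome moves membrane cargo, and the transition zone gates entry at the base. In collecting duct cells the cilium holds the polycystins, and loss of polycystins, fibrocystin or IFT proteins gives cystic kidneys. Rfx factors drive many of these genes through a DNA element called the X-box, whereas Foxj1 is best known as the master regulator of motile cilia. Dcdc2a, whose human counterpart is mutated in a form of nephronophthisis, binds the microtubules of the axoneme.

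Levels are log2 values from the robust multi-array average (RMA), so a difference of 1 is a doubling. They were compared between groups of 1 experiment with limma, and p-values were adjusted over all 23410 clusters with the Benjamini-Hochberg method. Below, called means an adjusted p under 0.05. Arrays with the same replicate number tended to deviate together in both experiments, though some with different numbers did so too. The fit was therefore also made with the replicate number as a block, and that value is given where it changed a call. The name of the line was checked against markers. Of 11 collecting duct and epithelial markers found, 10 lay above the 30th percentile of all clusters in both vehicle groups. Cdh1 (E-cadherin) stood at 12.25 ± 0.07 and 12.91 ± 0.05 (SD, n = 3), Aqp2 at 7.79 ± 0.24 and 8.01 ± 0.03, and Aqp4 was below that percentile at 5.93 ± 0.11 and 5.90 ± 0.0149. The percentile does not set the cell types apart, since 6 of 8 markers of multiciliated cells and 3 of 4 of intercalated cells also passed it. No marker of the 9 cell types examined was called with either inhibitor, with or without the block (smallest adjusted p = 0.386).

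In the vehicle groups all 32 genes lay above the 30th percentile of clusters. Kif17, at 6.94 and 6.83, was below the median of clusters (7.26 and 7.49), so a fall in it could go unseen. The SD between the 3 vehicle arrays ran from 0.02 (Ift57) to 0.35 (Pkhd1) in the AGN193109 experiment, with a median of 0.11, and from 0.02 (Ift74) to 0.26 (Bbs1) in the DEAB experiment, with a median of 0.11. Levels of different genes come from different probes and are not set against each other here. Levels are not compared between experiments either, since each had its own vehicle.

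Foxj1 was lower with each inhibitor in every same-numbered pair, and among the 32 genes it had the lowest difference with AGN193109. In the AGN193109 experiment its level in replicates 1, 2 and 3 was 9.96, 9.54 and 9.55 with vehicle, 9.19, 8.68 and 8.94 with AGN193109, and 9.50, 9.10 and 9.31 with AGN193109 and tRA. The vehicle and AGN193109 arrays did not overlap, and the arrays with tRA lay between them except where replicate 1 with AGN193109 (9.19) was above replicate 2 with tRA (9.10). The difference from vehicle was -0.75 (SE 0.16, 95% interval -1.11 to -0.38), a level 1.68-fold lower. It was not called when arrays were treated as independent (limma adjusted p = 0.388) and was called with the replicate block (SE 0.07, limma adjusted p = 0.00512). With the block, leaving out the arrays of any 1 replicate number ended that call, at adjusted p from 0.0715 to 0.213. Without the block, fitting all 18 arrays together gave a call (0.0334). Of all 23410 clusters, 57 had a more negative difference. In RNA of whole cultures, fewer cells that express a gene and less RNA per cell cannot be told apart.

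In the DEAB experiment Foxj1 was 10.18, 10.43 and 10.21 with vehicle, 9.81, 10.05 and 9.93 with DEAB, and 10.23, 10.44 and 10.35 with DEAB and tRA. Every DEAB array was below every vehicle array and every array with tRA. The difference between DEAB and vehicle was -0.34 (SE 0.09, 95% interval -0.54 to -0.14), 1.27-fold lower. It was called with the block (limma adjusted p = 0.0320) and not without it (0.830), and leaving out any 1 replicate number ended the blocked call (0.291 to 0.468). Adding tRA to DEAB raised Foxj1 by 0.41 (SE 0.09, 95% interval 0.21 to 0.61), which was called with the block (limma adjusted p = 0.00530) and not without it (0.170). Without 1 of the replicate numbers the blocked adjusted p ran from 0.110 to 0.137. Adding tRA to AGN193109 gave a difference of 0.36 (95% interval -0.00 to 0.73) that was not called in either fit (adjusted p = 1 and, with the block, 0.277). Each comparison with tRA shares the inhibitor arrays with the comparison of that inhibitor with vehicle, so a chance deviation in those arrays would move both in opposite directions.

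Dcdc2a had the largest differences of the 32 genes in the DEAB experiment. Its level was 9.92, 10.02 and 9.89 with vehicle, 9.44, 9.42 and 9.33 with DEAB, and 10.12, 10.38 and 10.27 with DEAB and tRA. None of these 3 groups overlapped another. With DEAB the level was 1.46-fold lower, a difference of -0.55 (SE 0.07, 95% interval -0.71 to -0.39). That difference just missed the threshold without the block (limma adjusted p = 0.0604) and was called with it (0.0180). Without DEAB+tRA replicate 1 it was called also without the block (0.0304), and with the block it was not called when any 1 replicate number was left out (0.0988 to 0.391). Adding tRA to DEAB raised Dcdc2a by 0.86 (SE 0.07, 95% interval 0.70 to 1.02), 1.82-fold, called without the block (limma adjusted p = 0.00183) and with it (0.00102). Leaving out any single array kept that call (0.00206 to 0.0172). In the fit with the block it was kept without replicate 1 (0.0194) and lost without replicate 2 (0.0616) or replicate 3 (0.0744). Fitting all 18 arrays together also ended it (0.0811).

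In the AGN193109 experiment Dcdc2a was 9.26, 9.07 and 9.61 with vehicle, 8.81, 8.49 and 9.43 with AGN193109, and 9.53, 9.08 and 9.49 with AGN193109 and tRA. Each AGN193109 array was below its same-numbered partners, but the groups overlapped because replicate 3 was higher than the others in both vehicle and AGN193109. The difference from vehicle was -0.40 (95% interval -0.93 to 0.12) and was not called (limma adjusted p = 1 and, with the block, 0.417). The difference on adding tRA was 0.46 (95% interval -0.07 to 0.98), also not called (1 and, with the block, 0.529). Without AGN193109 replicate 2 these differences were -0.19 and 0.25, without AGN193109 replicate 3 they were -0.66 and 0.72, and without vehicle replicate 3 the first was -0.25.

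Pkhd1 encodes fibrocystin, the membrane protein mutated in autosomal recessive polycystic kidney disease. It was the only other gene lower with both inhibitors in all 6 same-numbered pairs. Its level was 10.75, 10.06 and 10.30 with vehicle, 10.38, 9.50 and 10.21 with AGN193109, and 10.45, 9.92 and 10.26 with AGN193109 and tRA. In the DEAB experiment it was 10.93, 11.19 and 11.20 with vehicle, 10.75, 10.99 and 11.04 with DEAB, and 10.91, 11.11 and 11.22 with DEAB and tRA. The groups overlapped in both experiments, since the replicate numbers differed from each other by more than the treatments did. The differences from vehicle were -0.34 with AGN193109 (95% interval -0.90 to 0.22) and -0.18 with DEAB (95% interval -0.43 to 0.07). Single arrays moved both: the first was -0.0712 without AGN193109 replicate 2 and -0.51 without AGN193109 replicate 1, and the second was -0.0924 without DEAB replicate 1 and -0.27 without vehicle replicate 1. Neither was called by limma (adjusted p = 1 for both, and 0.414 and 0.200 with the block), and nor was the difference of 0.15 between DEAB with and without tRA (0.883 and, with the block, 0.154). The study's own gene lists, drawn from these same arrays, name Foxj1 for both inhibitors, Dcdc2a and Pkhd1 for DEAB and Bbs1 for AGN193109. The direction of these genes here is therefore not independent of that choice. For its lists the study took Foxa1 as the cut-off of significance, at q-values well above the threshold for a call here. Being listed there is thus not the same as being called here.

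**Figure D1:**
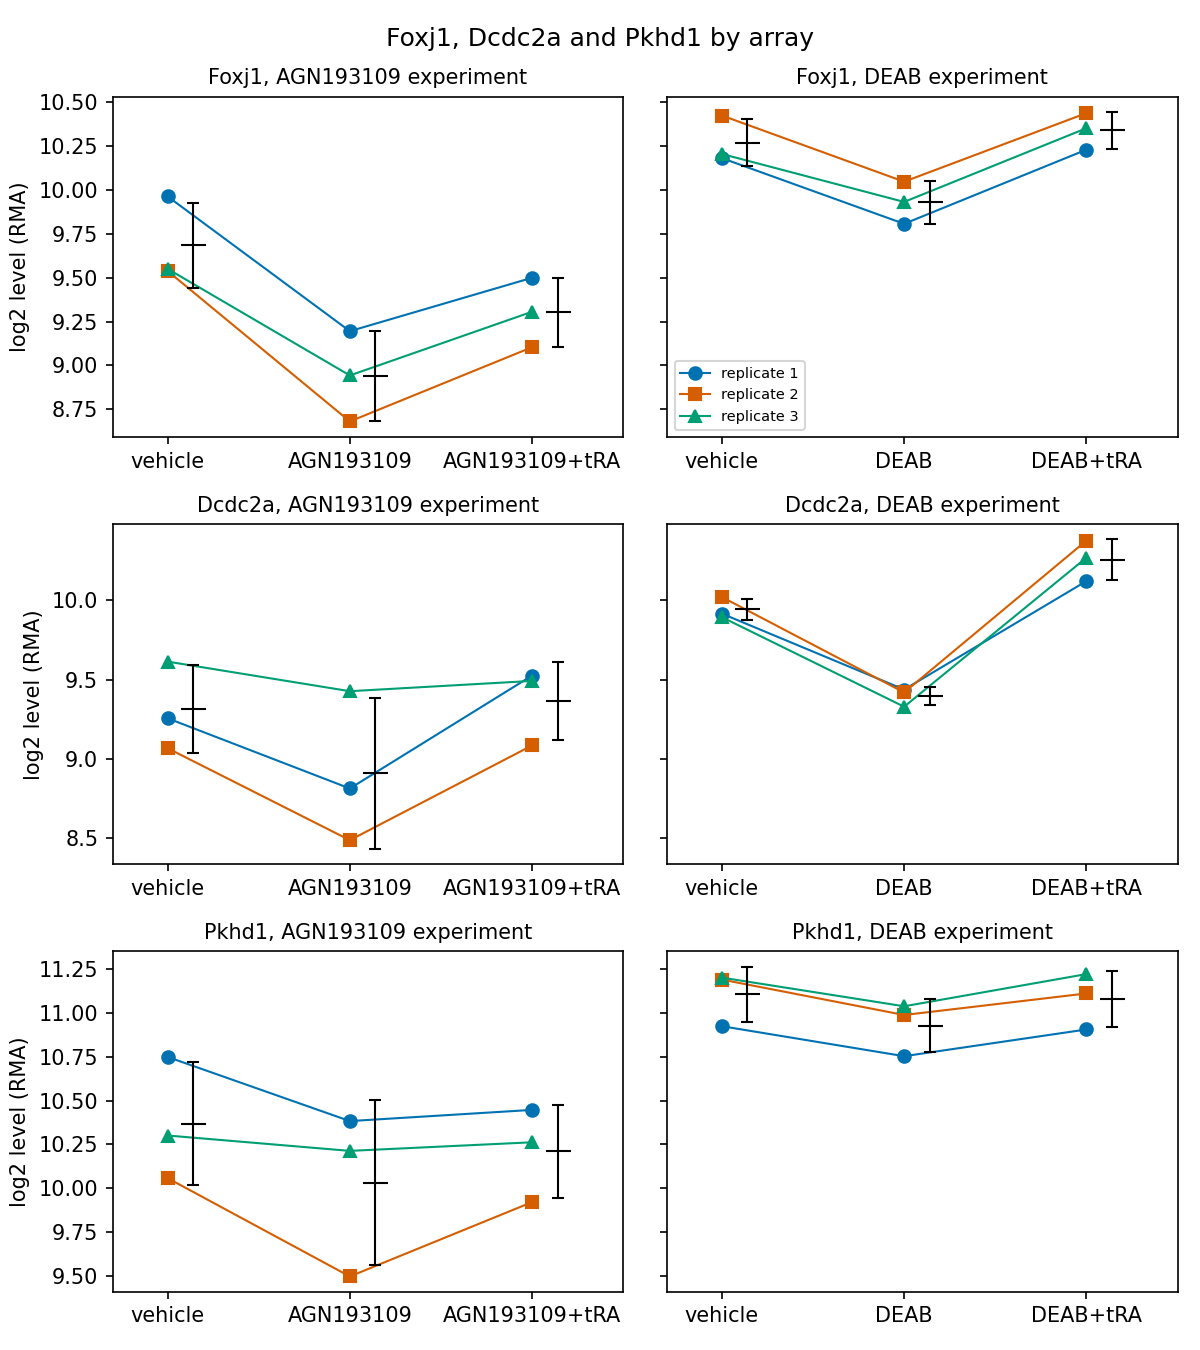
Log2 level (RMA) of Foxj1, Dcdc2a and Pkhd1 on each array of the AGN193109 experiment (left) and the DEAB experiment (right). Coloured points joined by lines are arrays of the same replicate number, and black bars are group means ± SD (n = 3). All lines go down from vehicle to the inhibitor, and the Dcdc2a arrays with DEAB and tRA (10.12 to 10.38) lie above every vehicle array.

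Counted over the 32 genes, few passed the test in any comparison. With AGN193109 against vehicle none was called without the block, where 0.0683% of all clusters were called, and 1 (Foxj1) was called with it, where 0.457% were. Foxj1 was also the only 1 of the 32 whose AGN193109 and vehicle arrays did not overlap, which held for 6.02% of all clusters. With DEAB against vehicle none was called without the block (all clusters 0.0342%) and 2, Foxj1 and Dcdc2a, were called with it (0.303%). The DEAB and vehicle arrays did not overlap for 3 genes, Foxj1, Dcdc2a and Pkd1, against 6.89% of all clusters. At an unadjusted p under 0.05, 1 of the 32 passed with AGN193109 (Foxj1), beside 3.3% of all clusters, and 2 with DEAB (Foxj1 and Dcdc2a), beside 4.05%. With the block 3 and 5 passed, beside 6.99% and 7.99% of all clusters.

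When tRA was added to AGN193109 no gene was called without the block (all clusters 0.0214%) or with it (0.0812%), and none had groups without overlap (4.15%). At an unadjusted p under 0.05, none passed without the block (all clusters 2.14%) and 2 with it (5.2%). When tRA was added to DEAB, 1 gene (Dcdc2a) was called without the block (all clusters 0.325%) and 2 (Foxj1 and Dcdc2a) with it (1.5%). At an unadjusted p under 0.05, 4 passed without the block (all clusters 6.39%) and 6 with it (11.8%). Groups did not overlap for 5 genes, Foxj1 and Dcdc2a, which were higher with tRA, and Rfx1, Rfx3 and Pkd1, which were lower, against 9.21% of all clusters. With the inhibitor and tRA against vehicle no gene was called in the AGN193109 experiment (all clusters 0% and, with the block, 0.00427%) or in the DEAB experiment (0% and 0.0214%). At an unadjusted p under 0.05, 2 genes passed in the first of these (Foxj1 and Ift122), beside 1.79% of all clusters, and 1 in the second (Dcdc2a), beside 5.99%. Foxj1, Dcdc2a and Pkhd1 were the 3 of 32 genes lower with both inhibitors in all 6 pairs, a pattern that 2.81% of all clusters had, and none of the 32 was higher in all 6 pairs, which 2.63% of all clusters were.

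The median difference of the 32 genes was 0.01 with AGN193109, beside 0.02 over all clusters, and -0.03 with DEAB, beside a median over all clusters of -0.000133. Without Foxj1, Dcdc2a and Pkhd1, the other 29 genes had differences from -0.24 (Ift27) to 0.10 (Bbs4) with AGN193109 and from -0.18 (Ift80) to 0.14 (Ift43) with DEAB. Their 95% intervals reached from -0.56 (Ift80) to 0.44 (Cep290) with AGN193109 and from -0.52 (Ift80) to 0.49 (Bbs1) with DEAB. Across the 32 genes, the differences with the antagonist and with the synthesis inhibitor had Pearson's r = 0.70 and Spearman's rho = 0.30. Over the 30 genes without Foxj1 and Dcdc2a, r was 0.36 and rho 0.16. Over the 29 without Pkhd1 as well, they were 0.16 and 0.07. Over all clusters they were 0.36 and 0.11. Genes on the same arrays are not independent points, so these values are descriptions only.

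**Figure D2:**
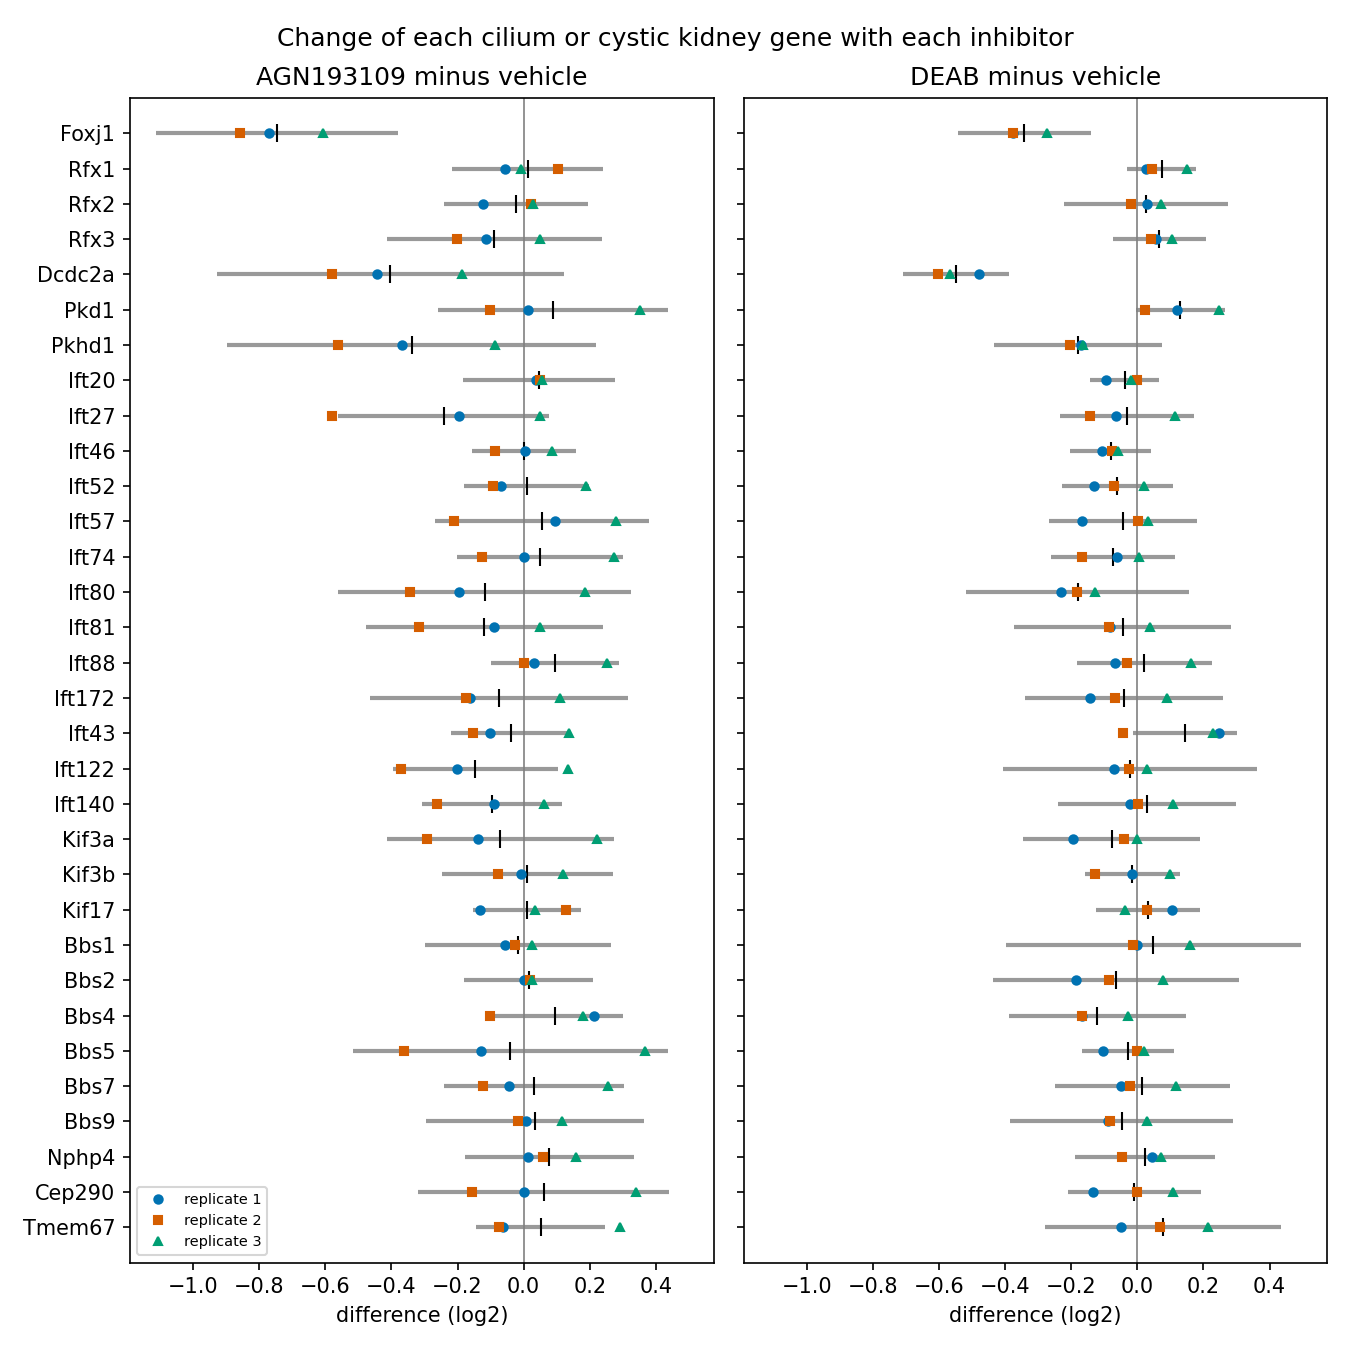
Difference in log2 level between AGN193109 (left) or DEAB (right) and vehicle for each of the 32 genes, ordered by role. Coloured points are the 3 same-numbered pairs, black ticks the mean difference and grey bars its 95% interval from the fit without the block. Foxj1, Dcdc2a and Pkhd1 have all points left of 0 in both panels, and in replicate 3 nearly all the other genes lie right of 0 with AGN193109.

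The sign of most of the other 29 genes went with the replicate number. Against the same-numbered vehicle array, AGN193109 replicate 2 had 22 of them lower (median -0.10) and AGN193109 replicate 3 had 28 of them higher (median 0.13). With DEAB, 21 and 20 of the 29 were lower in replicates 1 and 2, and 23 were higher in replicate 3 (median 0.07). Foxj1 and Dcdc2a stayed below all 29 in each of the 6 pairs. Pkhd1 did so in 4 of them, with 1 gene (Ift27) below it in AGN193109 replicate 2 and 3 genes below it in DEAB replicate 1. Foxj1, Dcdc2a and Pkhd1 were set apart with results of these same arrays known. Their place below the other 29 partly follows from that choice and is no separate support. When tRA was added to AGN193109, all 29 were lower in replicate 3 (median -0.19) and 19 were higher in replicate 2. The median shifts of single pairs were larger than the median of the 29 genes over all pairs of an inhibitor, 0.01 with AGN193109 and -0.02 with DEAB, and their part in the results was not tested.

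Among the transcription factors, the Rfx genes did not follow Foxj1. Rfx1, Rfx2 and Rfx3 differed from vehicle by 0.01, -0.02 and -0.09 with AGN193109 and by 0.07, 0.03 and 0.07 with DEAB. None was called in any comparison. Rfx3, which is required for normal cilia in mice and was picked here after its values were seen, was 9.38, 9.51 and 9.44 with vehicle, 9.44, 9.54 and 9.54 with DEAB, and 9.25, 9.42 and 9.42 with DEAB and tRA. The last group lay below all DEAB arrays, opposite in sign to Foxj1, with a difference of -0.15 (95% interval -0.29 to -0.01, limma adjusted p = 0.773 and, with the block, 0.190).

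Pkd1 encodes polycystin-1, the receptor-like protein mutated in most dominant polycystic kidney disease. With DEAB its values went the other way from those of Pkhd1. It was 9.60, 9.61 and 9.42 with vehicle, 9.72, 9.63 and 9.67 with DEAB, and 9.58, 9.51 and 9.52 with DEAB and tRA. The DEAB arrays lay above both other groups, by 0.13 over vehicle (95% interval -0.00 to 0.26), and the difference was not called (limma adjusted p = 1 and, with the block, 0.595). With AGN193109 it was 9.65, 9.30 and 9.39 against 9.64, 9.40 and 9.04 with vehicle and 9.49, 9.39 and 9.20 with AGN193109 and tRA. These groups overlapped, and the difference from vehicle of 0.09 (95% interval -0.26 to 0.44) had no common direction over the pairs.

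The 10 IFT-B genes, whose products form the trains that carry cargo towards the tip, had differences from -0.24 (Ift27) to 0.09 (Ift88) with AGN193109, 4 of them lower. With DEAB they ran from -0.18 (Ift80) to 0.02 (Ift88), 9 of them lower on average, beside a median over all clusters of -0.000133. Only Ift20, Ift46 and Ift80 were lower in all 3 pairs with DEAB. None of the 10 was called in any comparison. Ift27, a Rab-like GTPase of the train, was 9.31, 9.37 and 9.21 with vehicle, 9.12, 8.79 and 9.26 with AGN193109, and 9.49, 9.03 and 9.18 with AGN193109 and tRA. Replicate 2 with AGN193109 was the low array, and replicate 3 was not lower than its vehicle. The difference was -0.24 (95% interval -0.56 to 0.08, limma adjusted p = 1). In the DEAB experiment Ift27 was 9.73, 9.90 and 9.69 with vehicle, 9.66, 9.76 and 9.80 with DEAB, and 9.48, 9.78 and 9.75 with DEAB and tRA. Those groups overlapped, at a difference of -0.03 between DEAB and vehicle (95% interval -0.23 to 0.17).

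The 3 IFT-A genes, for transport back to the base, were all slightly lower with AGN193109, from -0.15 (Ift122) to -0.04 (Ift43), and none was called. Each was lower in 2 of 3 pairs. Ift122 was 9.45, 9.33 and 9.21 with vehicle, 9.25, 8.96 and 9.35 with AGN193109, and 8.97, 9.13 and 9.14 with AGN193109 and tRA. The arrays with tRA lay below all vehicle arrays, by 0.25 on average (a difference of -0.25, 95% interval -0.50 to -0.00, limma adjusted p = 1), and this was not called with the block either. In the DEAB experiment it was 9.91, 10.24 and 10.35 with vehicle, 9.84, 10.21 and 10.38 with DEAB, and 9.91, 10.30 and 10.31 with DEAB and tRA. There the replicate numbers were further apart than the groups, and DEAB differed from vehicle by -0.02 (95% interval -0.41 to 0.36). Ift43 was 9.94, 10.04 and 9.82 with vehicle, 10.19, 10.00 and 10.05 with DEAB, and 9.93, 10.00 and 9.92 with DEAB and tRA. Its difference with DEAB was 0.14 (95% interval -0.01 to 0.30, limma adjusted p = 1), higher in 2 of 3 pairs. In the AGN193109 experiment it was 9.72, 9.66 and 9.58 with vehicle, 9.62, 9.51 and 9.72 with AGN193109, and 9.63, 9.51 and 9.51 with AGN193109 and tRA, with overlapping groups.

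The kinesin-2 motors Kif3a, Kif3b and Kif17 differed from vehicle by -0.07 to 0.01 with AGN193109 and by -0.08 to 0.03 with DEAB. The 6 BBSome genes ran from -0.04 (Bbs5) to 0.10 (Bbs4) and from -0.12 (Bbs4) to 0.05 (Bbs1). Bbs1, a core subunit often mutated in Bardet-Biedl syndrome, was 10.47, 10.18 and 10.46 with vehicle, 10.42, 10.15 and 10.48 with AGN193109, and 10.35, 10.05 and 10.33 with AGN193109 and tRA. In the DEAB experiment it was 10.47, 10.95 and 10.90 with vehicle, 10.47, 10.94 and 11.05 with DEAB, and 10.48, 10.91 and 11.01 with DEAB and tRA. The replicate numbers were again further apart than the groups, and the differences from vehicle were -0.02 with AGN193109 (95% interval -0.30 to 0.26) and 0.05 with DEAB (95% interval -0.40 to 0.49). The transition zone genes Nphp4, Cep290 and Tmem67 differed by 0.05 to 0.08 with AGN193109 and by -0.01 to 0.08 with DEAB. No motor, BBSome or transition zone gene was called in any comparison, with or without the block.

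**Figure D3:**
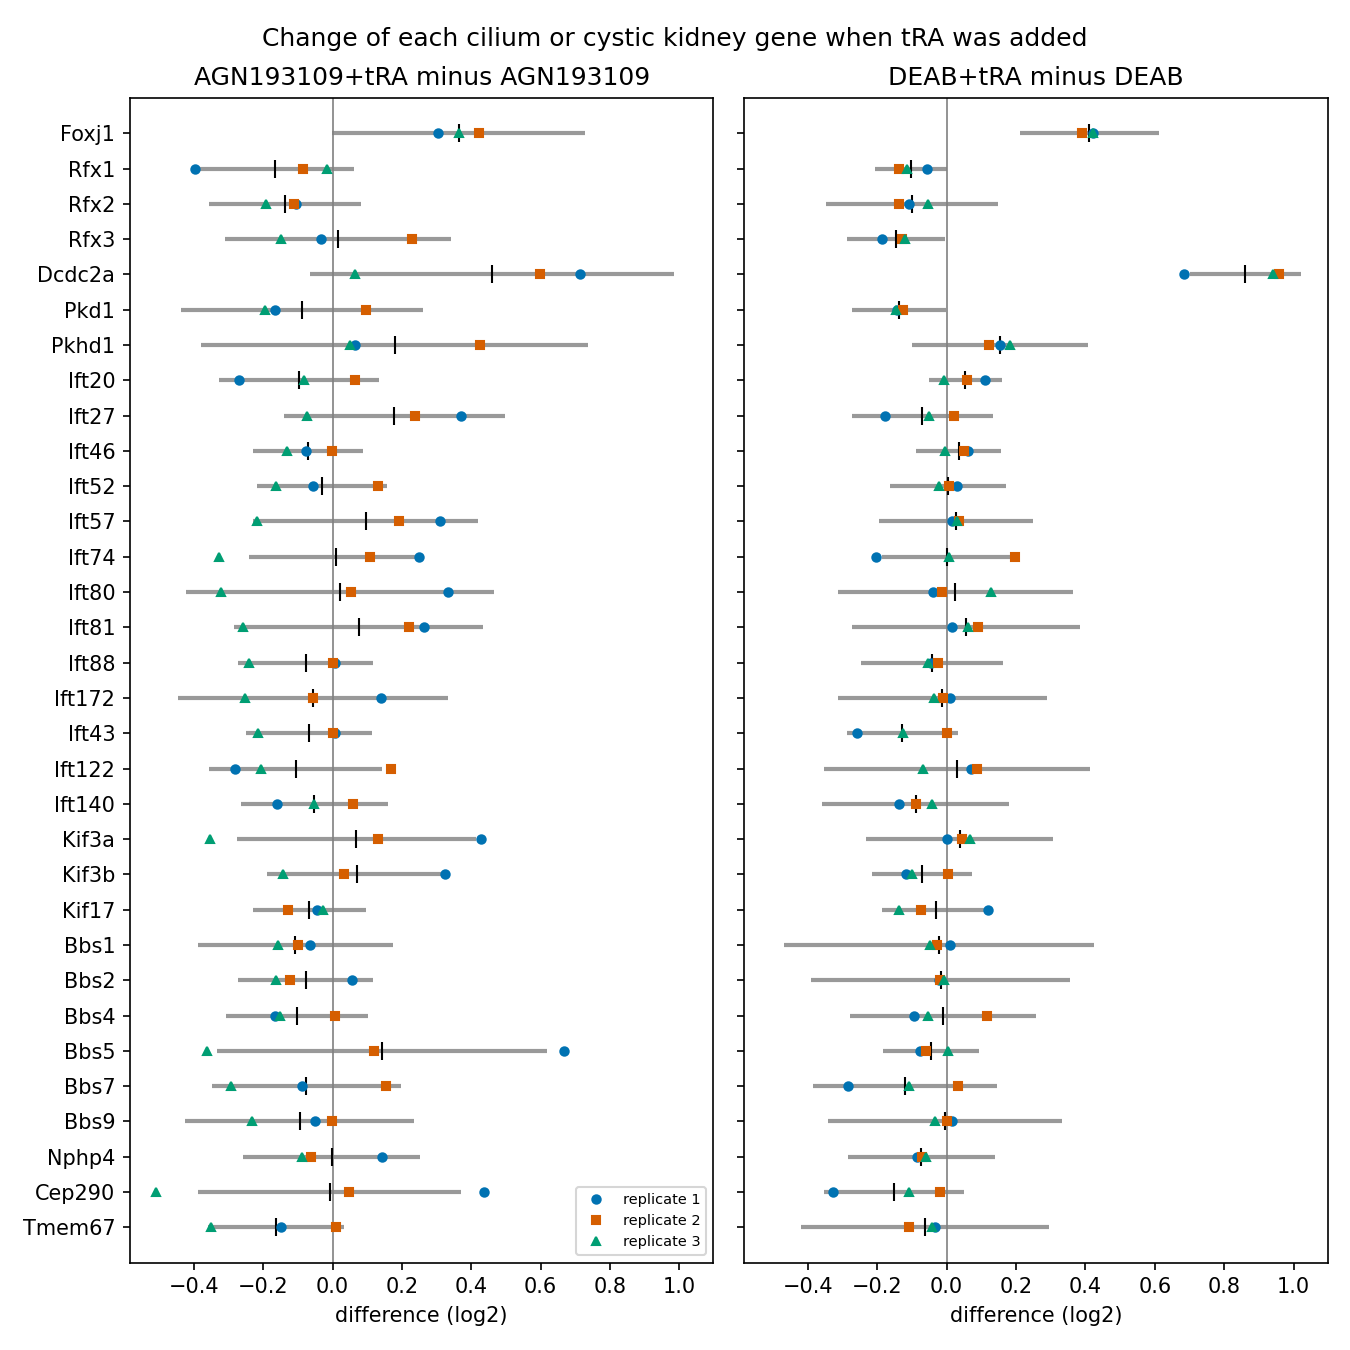
Difference in log2 level when tRA was added to AGN193109 (left, 0.2 µM tRA) or to DEAB (right, 0.01 µM tRA) for each of the 32 genes. Coloured points are the 3 same-numbered pairs, black ticks the mean difference and grey bars its 95% interval from the fit without the block. Dcdc2a (0.86) and Foxj1 (0.41) stand apart in the right panel, where the mean differences of the other genes lie between -0.15 and 0.15.

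Many of the genes share letters near their start, which the choice of genes did not use. The RefSeq promoter table (GRCm38.p6), which gives 250 bases before to 50 after a start, held 29 of the 34 genes and not Foxj1, Ift80, Ift81, Ift122 or Tmem67. The letters GTTGCC on either strand, the core of the X-box that Rfx proteins bind, stood in the promoters of 15 of these 29 (51.7%), against 14.1% of the promoters of 27025 genes. In the 250 bases before the start alone they stood in 8 (27.6%) against 11.8%. The longer letters GTTGCCA stood in 13.8% of the 29 against 5.02% of all genes. Before the start alone they stood in 3.45% against 4.19%, so there the longer letters were not more frequent. These matches are descriptions of the letters and no evidence of binding. The following stretches show that core in capitals in a transcription factor, 3 transport genes and a motor whose levels were not called, each 5′ to 3′ on the strand of the gene and outside the annotated gene.
Rfx2 (chr17:56831095-56831148, minus strand): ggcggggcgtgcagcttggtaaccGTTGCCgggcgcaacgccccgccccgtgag
Ift27 (chr15:78174082-78174114, minus strand): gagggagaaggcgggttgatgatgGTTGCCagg
Ift57 (chr16:49699210-49699263, plus strand): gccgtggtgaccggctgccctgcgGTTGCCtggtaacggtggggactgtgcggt
Ift140 (chr17:25015953-25016006, plus strand): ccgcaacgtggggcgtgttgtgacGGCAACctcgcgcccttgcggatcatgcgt
Kif17 (chr4:138262154-138262207, plus strand): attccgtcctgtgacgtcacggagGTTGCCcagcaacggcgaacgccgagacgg

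Retinoic acid receptors bind a hexamer in direct repeat. Repeats with a spacer of 1, 2 or 5 bases, built from GGTTCA or the hexamers named next and read on either strand, were in none of the 29 promoters and in 0.263%, 0.311% and 0.115% of those of all genes. At such rates none would be the usual outcome for any 29 promoters, and bases outside the windows were not searched. Nothing is concluded from their absence. Single hexamers were found in some of the 29 promoters. The letters AGGTCA stood in Pkd2, Ift172 and Bbs4 (10.3% of the 29, against 18.1% of all genes). The letters AGTTCA stood in Pkd2 and Pkhd1 (6.9% against 15.7%), and GGGTCA in 6 genes (20.7% against 15.3%). The Dcdc2a window held none of these hexamers. The forkhead core GTAAACA was in none of the 29 (4.05% of all genes). A single hexamer is no evidence of binding. Pkhd1, a gene lower in all pairs whose window lies in part outside the annotated gene, is shown with its hexamer in capitals, read here on the opposite strand.
Pkhd1 (chr1:20618083-20618182, minus strand): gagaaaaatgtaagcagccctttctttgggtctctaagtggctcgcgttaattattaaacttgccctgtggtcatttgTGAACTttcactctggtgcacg
By the RefSeq gene table of the same build, Foxj1 lies at chr11:116330704-116335499, Dcdc2a at chr13:25055273-25210706 and Pkhd1 at chr1:20057779-20618082.

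Further cilium genes were counted in 7 lists of 145 genes and 157 clusters, none of them among the 34. No cluster of these lists was called in any of the 6 comparisons. The smallest limma adjusted p with an inhibitor against vehicle was 1 without the block for both, and 0.227 and 0.395 with it. Without the block, 2 clusters had an unadjusted p under 0.05 with AGN193109 and 3 with DEAB, beside 3.3% and 4.05% of all clusters. Their differences ran from -0.30 to 0.23 (median 0.00) with AGN193109 and from -0.25 to 0.21 (median -0.01) with DEAB, so none was as low as Foxj1 or Dcdc2a.

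The list of motile cilium genes, which Foxj1 is known to switch on in multiciliated cells, had 47 of 50 genes on the array in 52 clusters. Of these, 25 were lower with AGN193109 and 25 with DEAB, with medians of 0.00 and 0.00, and none passed an unadjusted p under 0.05. When tRA was added to DEAB, 36 were higher and 16 lower, at a median of 0.04 beside 0.01 over all clusters. There 3 passed an unadjusted p under 0.05 (all clusters 6.39%), and none was called. When tRA was added to AGN193109, 31 were higher and 21 lower (median 0.01 beside -0.01), and 2 passed (all clusters 2.14%). Whether the list moved as a set was not tested. The 2 with the smallest p against vehicle were Dnaaf2 (0.16) and Lrrc6 (0.19) with AGN193109, and Cfap52 (-0.16) and Ak7 (-0.18) with DEAB. Lrrc6 and Ak7 lay below the 30th percentile of clusters with vehicle (4.57 and 6.08). The multiciliated cell markers Mcidas and Gmnc, which act upstream of Foxj1 in those cells, differed by -0.01 and -0.01 with AGN193109 and by 0.03 and 0.16 with DEAB. Gmnc (5.28 and 5.56) and Dnah5 (5.89 and 6.12) lay below the 30th percentile of clusters in both vehicle groups. All 8 multiciliated markers ran from -0.18 (Rsph1) to 0.08 (Tekt1) with AGN193109 and from -0.10 (Rsph1) to 0.16 (Gmnc) with DEAB. With vehicle their levels were 5.28 to 7.64 and 5.56 to 7.76, where the medians of clusters were 7.26 and 7.49. For genes this low a fall could go unseen, so flat values do not show that they failed to respond. Rsph1 was 0.24 higher when tRA was added to DEAB (limma adjusted p = 0.728 and, with the block, 0.283). Relatives of Foxj1, Rfx and Dcdc2a, 12 of 13 genes in 13 clusters, had medians of 0.08 and -0.01. Those with the smallest p were Dcdc5 (0.19 and 0.15 in its 2 clusters) and Rfx6 (0.23) with AGN193109. With DEAB they were Rfx4 (0.18) and Dcdc5 (-0.01 and 0.13). Rfx6 (5.00), the Dcdc5 cluster with 0.19 (5.00) and Rfx4 (5.74) also lay below that percentile with vehicle.

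The lists closest to the 34 genes in function likewise held no called gene. Other IFT and motor genes (17 clusters) had medians of -0.01 with AGN193109 and -0.04 with DEAB, those with the smallest p being Wdr34 (-0.18) and Ttc26 (0.12), and Ttc30a1 (-0.14) and Kifap3 (-0.11). Other BBSome and membrane traffic genes (14 clusters) had medians of 0.00 and -0.04, with the smallest p for Lztfl1 (-0.17 and 0.03 in 2 clusters) and Bbs10 (-0.13), and for Rab8a (-0.07) and Lztfl1 (0.04 and -0.10). The 2 clusters of Lztfl1, which regulates the BBSome, took opposite signs. Other transition zone, basal body and nephronophthisis genes (30 clusters) had medians of -0.03 and -0.02, with the smallest p for Glis2 (-0.24) and B9d2 (-0.17), and for B9d2 (0.16) and Glis2 (-0.12). B9d2, a transition zone protein, took opposite signs with the 2 inhibitors. Other cystic kidney genes (16 clusters) had medians of -0.02 and -0.05, with the smallest p for Bicc1 (-0.30 and -0.30 in 2 clusters) and Sec63 (0.13), and for Bicc1 (-0.12 and -0.13) and Sec63 (-0.05). Hedgehog pathway genes of the cilium (15 clusters) had medians of 0.04 and 0.04, with the smallest p for Ptch1 (0.17) and Boc (0.21), and for Ptch1 (0.16) and Gli2 (0.10).

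**Figure D4:**
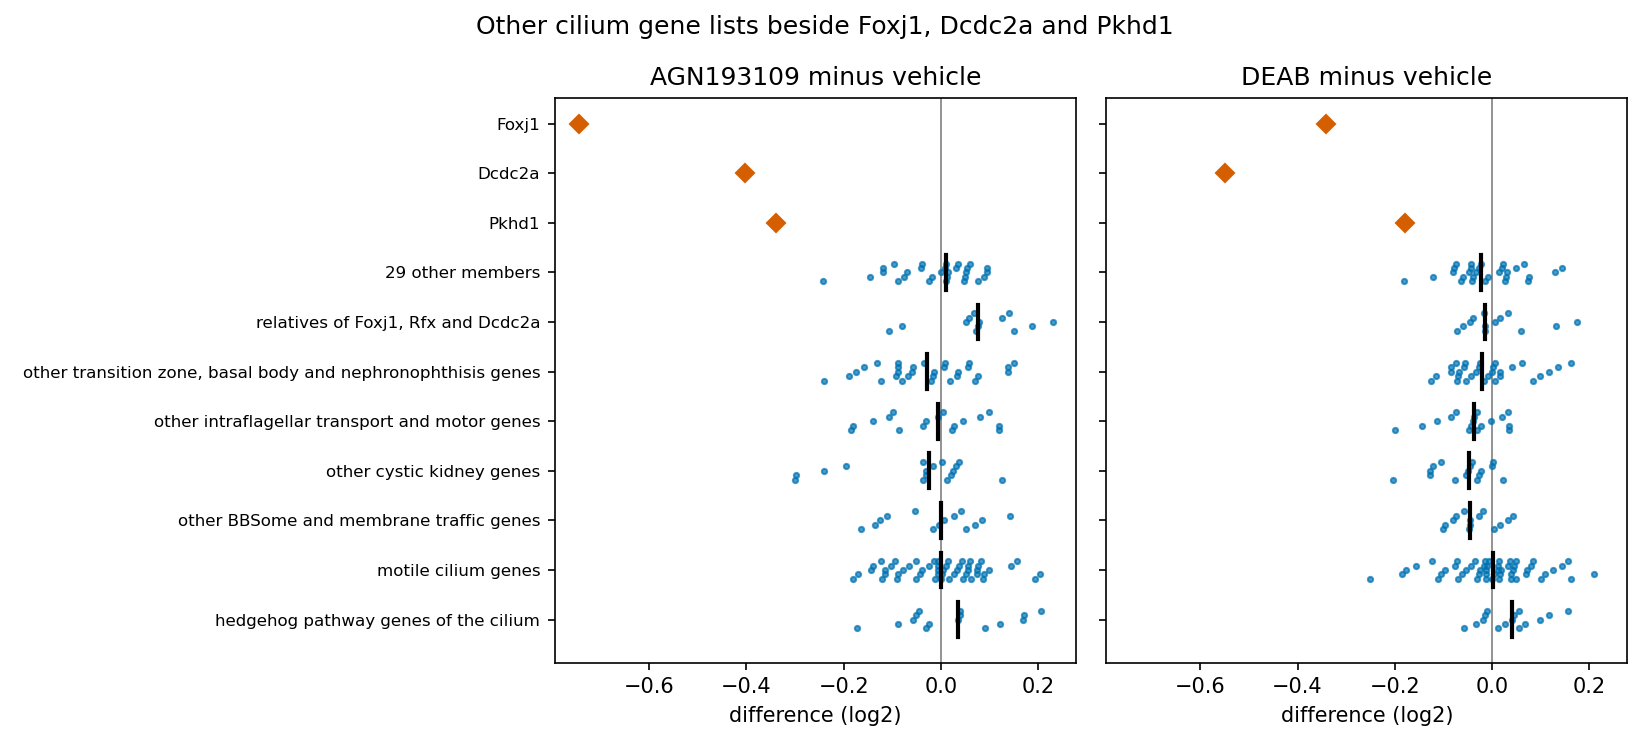
Difference in log2 level between AGN193109 (left) or DEAB (right) and vehicle. Each blue point is a cluster of the list named on the left, black bars are list medians, and orange diamonds are Foxj1, Dcdc2a and Pkhd1. Foxj1 and Dcdc2a lie left of every cluster of the 7 lists and of the 29 other genes in both panels.

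Whether the antagonist and the synthesis inhibitor differed in their effect was tested over all 18 arrays as the effect of AGN193109 minus that of DEAB. Foxj1 had -0.40 (SE 0.20, 95% interval -0.82 to 0.01, limma adjusted p = 1 and, with the block, 0.379). Dcdc2a had 0.15 (95% interval -0.41 to 0.70) and Pkhd1 had -0.16 (95% interval -0.78 to 0.46). None of the 32 genes was called in that test, with or without the block. An unadjusted p under 0.05 was found for none of them without the block (all clusters 2.3%) and for 2 (Foxj1 and Bbs4) with it (5.57%). The larger differences of Foxj1 under AGN193109 and of Dcdc2a under DEAB were therefore not shown to differ between the inhibitors. Against vehicle, Foxj1 with inhibitor and tRA was -0.38 (95% interval -0.75 to -0.02) in the AGN193109 experiment and 0.07 (95% interval -0.13 to 0.27) in the DEAB experiment. Dcdc2a was 0.06 (95% interval -0.47 to 0.58) and 0.31 (95% interval 0.15 to 0.47). Neither gene was called in those comparisons, and the tRA doses differed, so the experiments are not compared in them.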

How the data were processed

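RNA of 18 mIMCD-3 cultures was hybridised by the authors to Affymetrix Mouse Gene 1.0 ST arrays. The deposited values are log2 levels per transcript cluster, which the submitters' processing notes credit to RMA in Affymetrix Expression Console (version and genome build not given in the sources used here). RMA sets all arrays to one distribution, so a global shift cannot be seen, and the number of arrays limits the precision. Vehicle arrays were assigned to an experiment by the form of their label. Some labels spell AGN193109 with other final digits and were read as the same compound. Of 35556 clusters, 23410 had a symbol in the platform annotation (1621 of them several), and each of the 32 genes had 1 cluster of 1 symbol, matched to RefSeq by gene ID.

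Group means were fitted per experiment with limma 3.58.1 in R 4.3.3. Whether replicate numbers pair the arrays was checked on the data: residual correlations of same-numbered arrays were 0.198 to 0.645 and 0.179 to 0.614 in the 9 pairs of each experiment, above 0.1 in every one. Those of different-numbered arrays were -0.575 to 0.205 and -0.511 to 0.312. The same-numbered and different-numbered ranges thus overlapped in both experiments, and the pairing was not clear for every array. The numbers were not stated to mark shared cultures. With 3 arrays against 3, no permutation p could go below 0.1, so none was used. The fit was tested on simulated data. Alternatives were the replicate block, quantile normalization, array medians subtracted, omission of clusters under the 30th percentile, clusters without a symbol kept, fits on the 6 arrays of a comparison or on all 18, limma's trend and robust options and leaving out arrays. The genes and lists were chosen with earlier results of these data known. Arrays were named in full for Foxj1, Dcdc2a, genes called or listed by the study, and the 2 others with the smallest p per inhibitor.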

Additional observations from a re-analysis of the deposited data

Results flagged for a closer look

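In the same-numbered pairs of inhibitor and tRA against vehicle, Foxj1 was below vehicle in all 3 pairs with AGN193109 and tRA and above vehicle in all 3 pairs with DEAB and tRA, and the first difference minus the second was -0.45. The difference was not tested. Neither comparison was called by limma, the interval of the second (0.07, 95% interval -0.13 to 0.27) includes 0, and the tRA dose was 0.2 µM in the first and 0.01 µM in the second, so no difference between the experiments is drawn from it.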

How the results depend on the processing

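The number of the 32 genes called rested on the fit. With the replicate block it was 1 with AGN193109, 2 with DEAB and 2 when tRA was added to DEAB. The block changed no other call of the 32 genes. Over all clusters, calls without and with the block were 16 and 107 with AGN193109, 8 and 71 with DEAB, 5 and 19 when tRA was added to AGN193109, and 76 and 351 when it was added to DEAB. With quantile normalization again it was 1 (Dcdc2a, limma adjusted p = 0.0296) with DEAB and 2 when tRA was added to DEAB (Foxj1, 0.0468). Without dim clusters it was 1 with DEAB (Dcdc2a, 0.0418), and with limma's trend and robust options also 1 (Dcdc2a, 0.0482). With all 18 arrays in 1 fit it was 1 with AGN193109 (Foxj1, 0.0334) and 0 when tRA was added to DEAB (Dcdc2a, 0.0811). Leaving out arrays gave 0 to 1 genes with DEAB and 0 to 1 when tRA was added to DEAB, including the fits with the block without 1 replicate number, which were chosen after seeing the data. The cause of these shifts was not tested.

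Foxj1 kept its sign under every setting in all comparisons. Differences near 0 changed sign. After quantile normalization, Pkd1 was 0.0299 with AGN193109 and tRA and 0.0283 with DEAB and tRA against vehicle, and Pkhd1 was 0.000778 in the latter. When arrays were left out, 26 of 56 differences changed sign, none of them called. With AGN193109 against vehicle the ranges were -0.11 to 0.0815 for Bbs1, -0.0716 to 0.23 for Pkd1 and -0.13 to 0.017 for Ift43. With DEAB against vehicle they were -0.10 to 0.22 for Bbs1, -0.10 to 0.0328 for Ift27 and -0.15 to 0.13 for Ift122. When tRA was added to AGN193109 they were -0.18 to 0.0141 for Pkd1, -0.0883 to 0.36 for Pkhd1 and -0.12 to 0.00422 for Ift43. When tRA was added to DEAB they were -0.12 to 0.16 for Ift122, -0.20 to 0.14 for Bbs1 and -0.12 to 0.023 for Ift27. For AGN193109 with tRA against vehicle they were -0.32 to 0.0307 for Pkhd1, -0.16 to 0.14 for Pkd1, -0.0675 to 0.21 for Dcdc2a and -0.19 to 0.0752 for Ift27. For DEAB with tRA against vehicle they were -0.12 to 0.19 for Bbs1, -0.12 to 0.14 for Ift122, -0.0696 to 0.0388 for Pkd1, -0.12 to 0.061 for Pkhd1 and -0.0408 to 0.0717 for Ift43. For the effect of AGN193109 minus that of DEAB they were -0.34 to 0.11 for Pkhd1, -0.20 to 0.099 for Pkd1, -0.24 to 0.0839 for Bbs1, -0.11 to 0.36 for Dcdc2a and -0.28 to 0.00278 for Ift122.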

Other observations

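Among the 157 clusters of the related lists, 7 (4.46%) were lower and 3 (1.91%) were higher with both inhibitors in all 6 same-numbered pairs, beside 2.81% and 2.63% of all clusters. None was called by limma in any comparison, with or without the block. The following 3 genes among them were picked after their values were seen. Ptch1, the hedgehog receptor that leaves the cilium when hedgehog binds, was 9.70 ± 0.05 with vehicle and 9.87 ± 0.08 with AGN193109 (SD, n = 3), and 9.92 ± 0.05 with vehicle and 10.07 ± 0.04 with DEAB. When tRA was added it was lower in all 6 pairs, at differences of -0.19 and -0.16, in comparisons that share the inhibitor arrays (limma adjusted p = 1 and 0.709, and 0.934 and 0.203 with the block). Glis2, a zinc finger factor mutated in nephronophthisis, was 12.26 ± 0.14 with vehicle and 12.02 ± 0.14 with AGN193109, and 12.14 ± 0.06 with vehicle and 12.03 ± 0.04 with DEAB. One cluster of Bicc1, an RNA-binding protein whose loss gives cystic kidneys in mice, was 12.08 ± 0.18 with vehicle and 11.78 ± 0.31 with AGN193109, and 12.44 ± 0.16 with vehicle and 12.32 ± 0.11 with DEAB. Its other cluster was lower in 2 of 3 pairs with AGN193109 and in 3 of 3 with DEAB.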
